A study of Homo sapiens with 4 samples.

Results

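Genes of cell adhesion and of the epithelial intermediate filament were examined in HT29 cells, a human colorectal adenocarcinoma line, sorted for the surface peptidase CD26. The group held 61 genes, read by 69 probe sets, and comprised cadherins and protocadherins, catenins, claudins and other tight junction proteins, polarity proteins, desmosomal proteins, keratins, a CEACAM gene and connexins. They were chosen by 2 conditions. The gene symbol had to belong to one of these families, and the gene had to be in a deposited comparison table that named 6603 genes by a single symbol. All 11430 probe sets of that table differed by 2-fold or more in the pair formed by the replicate 1 arrays, against 5926 of them when CD26+ replicate 1 was set against the other CD26- array. The difference within that pair therefore chose the genes, and it is given below as a description, with no test. At the edge of the choice lay KRT19 and PCDHGB7, at 0.48 and 0.47 times the CD26- replicate 1 signal, and CDH6 and KRT83, at 2.04 and 2.06 times. Probe sets outside the table carried no symbol, so the genes just outside the choice could not be named. Further probe sets of the 61 genes could not be found either, so a dim value need not be the level of the gene. KRT8, KRT18, EPCAM, CDX2 and CTNNB1 were not analysed here.

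The series held 4 Affymetrix U133 Plus 2.0 arrays of total RNA, 2 of CD26+ and 2 of CD26- cells. All came from HT29 cells grown in DMEM with FBS without any treatment, and the sort took the 5% of cells with the highest and the 5% with the lowest CD26 staining. The arrays of a group were labelled biological replicates, and nothing in the labels said what separated them, so the spread between them may be technical. Values below are deposited signals on a linear scale, in the order replicate 1 and replicate 2 of a group. DPP4, which encodes CD26, read 1952 and 6465 on the arrays labelled CD26-, and 6649 and 2513 on the CD26+ arrays. The array labelled CD26- replicate 2 was thus as high in the sorted gene as CD26+ replicate 1, and every direction drawn from it below rests on its label. CD26+ replicate 2 stood apart over all probe sets. The correlation of its log2 values with each other array was 0.291 to 0.321, against 0.869 to 0.887 among those 3, and its median signal was 270.3, against 76.1 to 96.75. Summed signals of 7 of 13 colon epithelial markers, those named in the table (CDH1, CDH17, CDX1, KRT19, KRT20, LGALS4 and VIL1), ran from 57254 to 132738 on those 3 arrays and came to 2881 on CD26+ replicate 2. CDH1, KRT19, KRT20, LGALS4 and VIL1 were lowest on CD26+ replicate 2. CDH17 and CDX1 read 814 and 380 there, more than on CD26- replicate 1 (235 and 20.5) and CD26+ replicate 1 (106 and 54.0). Summed signals of 4 of 10 fibroblast markers (ACTA2, COL1A1, DCN and FAP) were 108 to 1117 on the other 3 arrays and 7041 on CD26+ replicate 2, and those of 2 of 8 endothelial markers (CLDN5 and EMCN) were 49.4 to 58.0 and 812. Sums of 2 of 9 immune markers (CD14 and LYZ) were 2379 to 6783 and 157, and those of 2 of 7 squamous markers (DSG3 and KRT10, both of the group) were 2370 to 5282 and 299.9. The lower squamous sum was that of KRT10 (2327 to 5267 and 140), whereas DSG3 went the other way (15.7 to 43.0 and 160). Of 11 neuronal markers only CDH4, also of the group, was named. The part of these differences in the values below was not tested. In sorted bulk RNA, fewer cells of a type and less RNA per cell cannot be told apart.

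Epithelial cells are held to each other by several kinds of junction. Cadherins bind their like on the neighbouring cell and are tied through catenins to actin, claudins seal the space between cells at the tight junction, and desmosomal cadherins are linked by plakophilins to keratin filaments. Connexins form channels between neighbours, and PARD proteins set up the apical and basal sides of the cell. In the colon, CDH1 (E-cadherin), CDH17 (liver-intestine cadherin), KRT19 and KRT20 are typical of the surface epithelium, and loss of E-cadherin and of keratins is a usual sign by which an epithelial to mesenchymal transition is recognised.

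Across all probe sets, limma with Benjamini-Hochberg adjustment called 0 of 54613 (0.00%), the smallest adjusted p being 0.79, and so none of the 69 probe sets was called. At an unadjusted p under 0.05 the fit gave 853 probe sets, and the methods' t-test gave 1846 before and 0 after adjustment. Of the 61 genes, 36 were higher and 25 lower on CD26+ replicate 1 in the pair that chose them. The same split of all listed genes was not counted, so this split and those of the families below describe the choice, with no background. Against both arrays labelled CD26- at once, CD26+ replicate 1 was lower by 2-fold or more in 8 genes (CDH1, KRT19, KRT20, DSC2, PKP1, PKP2, MARVELD3 and CLDN23) and higher by 2-fold or more in 5 (CLDN9, CLDN10, CLDN14, PCDHB13 and GJB1), where 2-fold is a gap of 1 in log2(normalized signal + 16). These shares were 13.1% and 8.20%, beside 10.1% and 12.9% of the 6603 listed genes and 5.83% and 4.53% of all probe sets, so over the whole group they lay near those of the list. In 18 genes CD26+ replicate 1 fell between the arrays labelled CD26- after normalization. Only 17 of the 61 genes had signals above the array median on each of the 3 arrays that resembled one another, and 22 were below it on all of them.

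**Figure D1:**
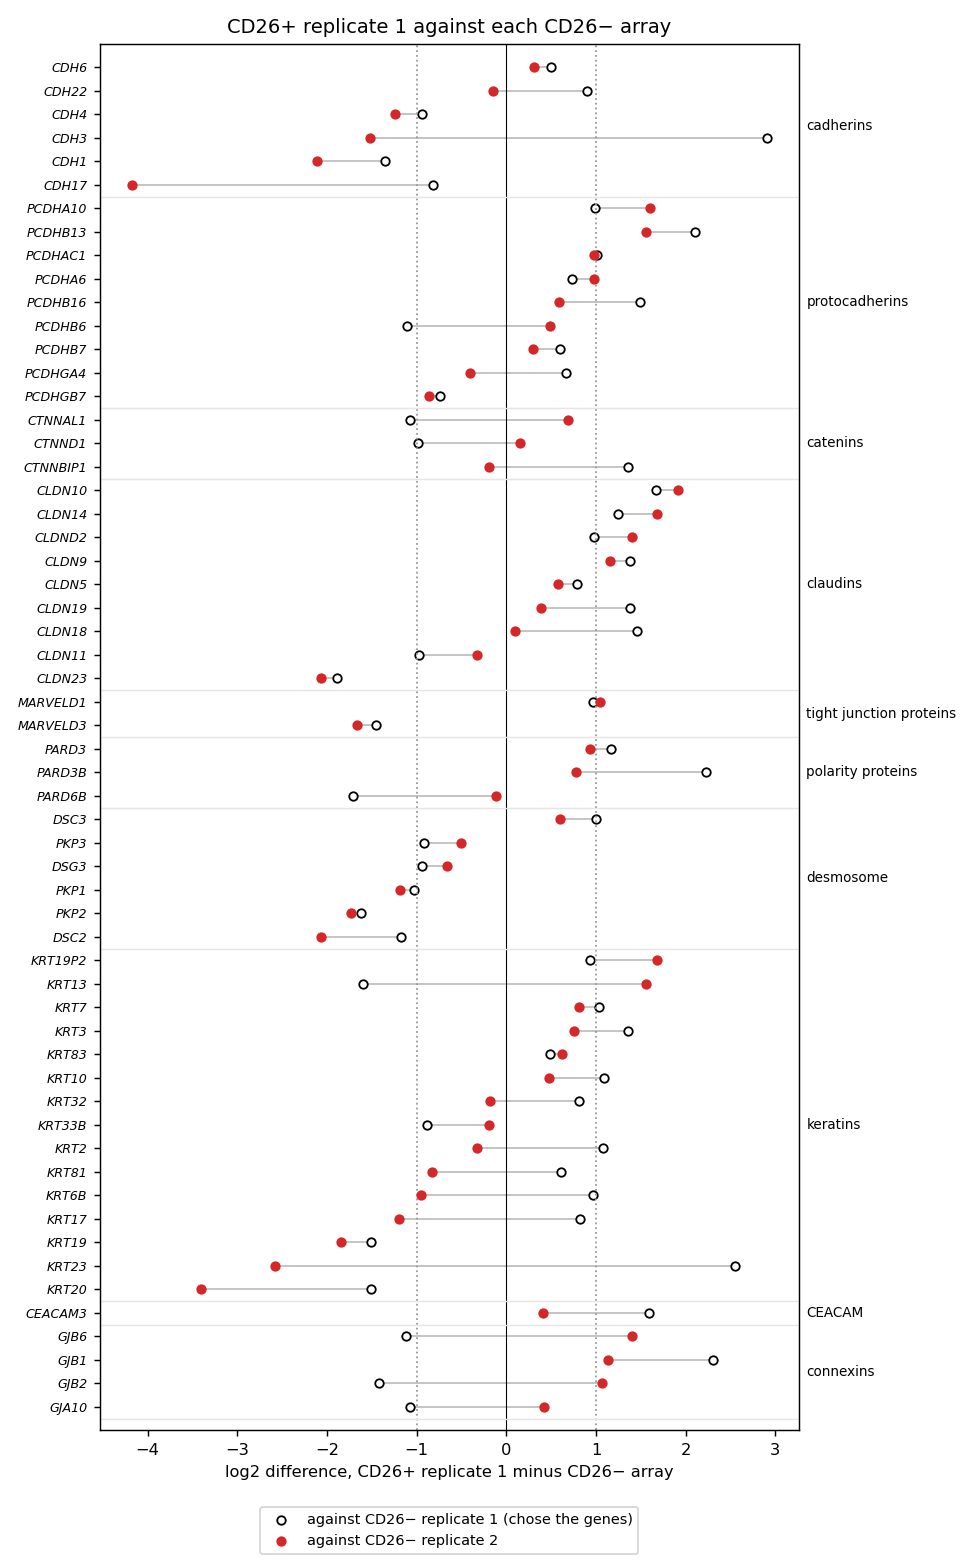
Log2 difference of CD26+ replicate 1 from CD26- replicate 1 (open circles, the pair that chose the genes) and from the array labelled CD26- replicate 2 (red), after quantile normalization, for 58 genes grouped by family, with dotted lines at a 2-fold difference. Genes with both points beyond the same dotted line are 8 on the left, among them KRT20, CDH1 and DSC2, and 5 on the right, among them GJB1 and CLDN10, while CDH3, KRT13 and KRT23 have their points on opposite sides.

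Among the brighter genes the directions were less even. The 25% of probe sets with the highest mean over the 4 arrays held 14 genes of the group, and in 5 of them (CDH1, KRT19, KRT20, DSC2 and MARVELD3) CD26+ replicate 1 lay 2-fold or more under both arrays labelled CD26-, against 1 (GJB1) above both. Among the listed genes of that bright class the shares were 9.34% below and 13.9% above. The gap to CD26- replicate 1 was fixed by the choice, and the array of CD26+ cells is the same in both gaps, so these counts describe the arrays and are no test. The class was set with the same signals, so class and direction are not independent.

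**Figure D2:**
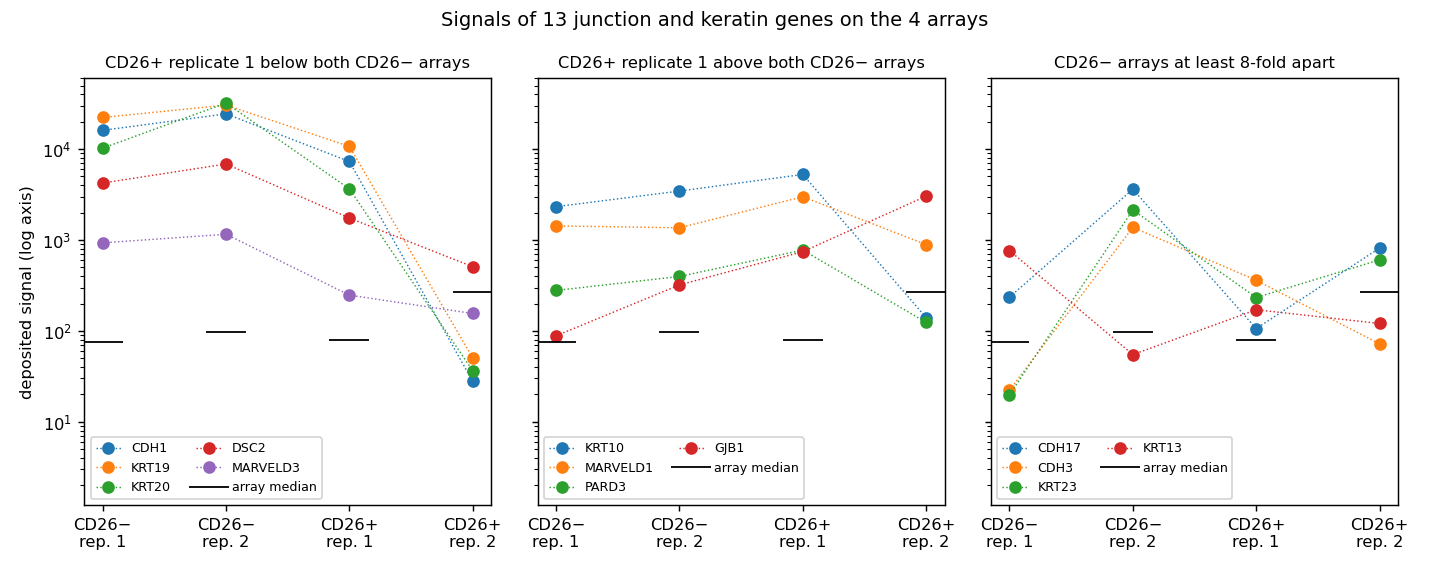
Deposited signals (log axis) of 13 genes on the 4 arrays, with dotted lines only joining the values of a gene and black bars at each array's median. On the left, CDH1, KRT19, KRT20, DSC2 and MARVELD3 are lower on both CD26+ arrays, in the middle GJB1 is higher on both while KRT10, MARVELD1 and PARD3 are high on CD26+ replicate 1 and lowest on replicate 2, and on the right are CDH17, CDH3, KRT23 and KRT13, whose CD26- arrays lie at least 8-fold apart also after normalization.

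Promoter sequences from RefSeq (GRCh38.p14), the 250 bases before the annotated start, were found for 33 of the 61 genes. They are shown for 4 genes described below, 2 keratins of the same cluster on chromosome 17 that differed in opposite directions between the replicate 1 arrays (KRT20 at chr17:40885243-40885492 and KRT10 at chr17:40822615-40822864, both on the minus strand), the desmosomal DSC2 (chr18:31102422-31102671, minus strand) and the connexin GJB1 (chrX:71214989-71215238, plus strand). Capitals mark 3 searched motifs. These were the E-box CAGGTG on either strand, known as a site of the SNAI and ZEB repressors, TTTATG or TTTATT on either strand, known as the core of sites of the intestinal factors CDX1 and CDX2, and TATAAA on the strand of the gene. On the other strand the CDX letters read CATAAA and AATAAA, which differ from TATAAA in the first base, so no site was counted for both.
KRT20: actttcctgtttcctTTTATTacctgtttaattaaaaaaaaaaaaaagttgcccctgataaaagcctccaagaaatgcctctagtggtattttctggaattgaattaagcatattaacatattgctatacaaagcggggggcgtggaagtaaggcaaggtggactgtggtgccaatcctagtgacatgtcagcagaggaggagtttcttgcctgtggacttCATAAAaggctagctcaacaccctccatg
KRT10: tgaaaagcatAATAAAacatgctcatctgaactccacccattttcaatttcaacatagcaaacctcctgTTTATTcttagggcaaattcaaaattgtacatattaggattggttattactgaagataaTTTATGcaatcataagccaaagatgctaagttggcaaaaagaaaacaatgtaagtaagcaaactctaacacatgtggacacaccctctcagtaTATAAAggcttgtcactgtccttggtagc
DSC2: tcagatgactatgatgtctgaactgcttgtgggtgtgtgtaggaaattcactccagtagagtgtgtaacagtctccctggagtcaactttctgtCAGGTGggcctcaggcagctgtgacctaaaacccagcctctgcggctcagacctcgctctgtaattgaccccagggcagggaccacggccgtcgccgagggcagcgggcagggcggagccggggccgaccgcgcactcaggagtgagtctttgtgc
GJB1: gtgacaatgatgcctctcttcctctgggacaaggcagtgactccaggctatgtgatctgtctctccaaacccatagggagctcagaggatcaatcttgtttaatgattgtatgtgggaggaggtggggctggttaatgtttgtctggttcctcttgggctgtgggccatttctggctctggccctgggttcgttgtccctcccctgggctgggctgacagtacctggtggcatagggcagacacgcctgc
KRT20 held CATAAA 29 bases and TTTATT 235 bases before its start. KRT10 held TATAAA at 29 bases and CDX letters at 122, 181 and 240 bases, DSC2 held the E-box at 156 bases, and the GJB1 window held none of the 3. The E-box stood in 5 of the 33 promoters (15.2%), beside 17.5% of 27305 promoters, the CDX letters in 12 (36.4%), beside 23.2%, and TATAAA in 7 (21.2%), beside 7.17%. The GC box GGGCGG, on either strand and not in capitals here, stood in 8 (24.2%), beside 42.3%. Several of the 33 are neighbours in the keratin and protocadherin clusters and share sequence, and a match in letters is not a bound site.

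Cadherins were 6 genes, 3 higher and 3 lower on CD26+ replicate 1 in the pair that chose them. CDH1 (E-cadherin, chromosome 16, 68771224 to 68869437 in the coordinates of the deposited table, whose build is not given in the sources used here) is the classical cadherin of epithelia. Its probe set 201131_s_at read 16099 and 24462 on the CD26- arrays and 7312 and 27.7 on the CD26+ arrays. Both CD26+ arrays were below both CD26- arrays, and the 2 CD26+ arrays differed from each other far more than the CD26- arrays did. CD26+ replicate 1 was 2.20-fold below CD26- replicate 1 and 3.35-fold below the array labelled CD26- replicate 2. The fitted log2 fold change was −5.68 (SE 2.54, n = 2 arrays a group, limma adjusted p = 0.79), and −1.73 without CD26+ replicate 2. A second CDH1 probe set, 201130_s_at, read 108 and 99.7 on the CD26- arrays and 47.7 and 848 on the CD26+ arrays. It shared the low value of CD26+ replicate 1 and went the other way on CD26+ replicate 2, so its fitted change was 0.70 (SE 1.21), and −0.79 without CD26+ replicate 2.

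For the other cadherins of the colon, the sign of the fitted change depended on which arrays were used. CDH17, which mediates adhesion in intestinal epithelium, read 235 and 3622 on the CD26- arrays and 106 and 814 on the CD26+ arrays. CDH3 (P-cadherin), the neighbour of CDH1 on chromosome 16 (68679229 to 68732931), read 22.3 and 1377 on the CD26- arrays and 360 and 72.0 on the CD26+ arrays. The CD26- arrays were 15.4-fold apart for CDH17 and 61.9-fold apart for CDH3, and those of CDH3 enclosed both CD26+ arrays. In the pair that chose it the ratio of CDH3 was 16.2, taken against a signal of 22.3 that lay under that array's median of 76.1, and CD26+ replicate 1 was 3.82-fold lower than the array labelled CD26- replicate 2. The fitted log2 fold change of CDH3 was −1.01, and from −3.23 to 1.21 when an array was left out, above 0 where either replicate 2 array was the one left out (1.21 for CD26- and 0.70 for CD26+). CDH17 was lower on CD26+ replicate 1 than on both CD26- arrays, and its fitted change was −1.53, with 0.15 without the array labelled CD26- replicate 2 and −3.21 to −0.56 without each of the others. The other cadherins were dim. CDH4, CDH6 and CDH22, of which CDH4 and CDH6 were named R-cadherin and K-cadherin for retina and kidney, had signals of 13.4 to 79.5 on the 3 similar arrays and of 70.3 to 396 on CD26+ replicate 2, and all were below the array median on those 3.

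Protocadherins, cadherin relatives best known from neurons and encoded mostly in gene clusters on chromosome 5, were 10 genes, 8 of them higher on CD26+ replicate 1 in the pair that chose them. One of the 10, PCDH11Y, is counted here but its levels are not printed. The other 9 belong to the clusters and were dim, with signals of 9.36 to 145 on the 3 similar arrays. PCDHB13 read 18.6 and 46.3 on the CD26- arrays and 145 and 269 on the CD26+ arrays, with a fitted log2 fold change of 1.47 (SE 0.84, limma adjusted p at or above 0.79). Both CD26+ arrays were above both CD26- arrays, by at least 0.84 on the log2 scale after normalization. The signal of 269 lay just under the median of CD26+ replicate 2, 270.3. PCDHGB7 went the other way in rank after normalization only. It read 40.9 and 59.3 on the CD26- arrays and 19.1 and 67.7 on the CD26+ arrays. PCDHB7 read 16.1 and 32.2 on the CD26- arrays and 35.5 and 150 on the CD26+ arrays. Probe sets of the clusters can share exons or bind related members, 4 of the 9 being marked _s_at or _x_at by the array's maker for such sharing, so their split among the genes is uncertain.

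Catenins and their partners were 3 genes, none of them with both CD26+ arrays on one side of both CD26- arrays. CTNND1 encodes p120 catenin, which keeps cadherins at the membrane. It read 153 and 68.0 on the CD26- arrays and 63.6 and 963 on the CD26+ arrays, with CD26+ replicate 1 close to the array labelled CD26- replicate 2. CTNNAL1, which encodes a relative of alpha catenin, read 3718 and 1004 on the CD26- arrays and 1646 and 627 on the CD26+ arrays. CTNNBIP1, an inhibitor that keeps beta catenin from its transcription partners, read 163 and 720 on the CD26- arrays and 569 and 1603 on the CD26+ arrays. In each case CD26+ replicate 1 lay between the arrays labelled CD26- after normalization.

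Claudins were 9 genes, 7 of them higher on CD26+ replicate 1 in the pair that chose them, and 5 of them with both CD26+ arrays above both CD26- arrays after normalization. Each of these counts includes CLDND2, which was taken in by its symbol and encodes a claudin domain protein rather than a claudin. Most were dim. CLDN9 read 30.8 and 50.8 on the CD26- arrays and 112 and 681 on the CD26+ arrays, with a fitted log2 fold change of 1.99 (SE 0.91), which was 1.27 without CD26+ replicate 2. CLDN10, known for forming ion channels between cells in the kidney, read 12.5 and 11.3 on the CD26- arrays and 78.6 and 220 on the CD26+ arrays, and its fitted change was 1.65 (SE 0.80). Both were above both CD26- arrays in each CD26+ array. CLDN14, a claudin of the inner ear and kidney, read 53.7 and 46.7 on the CD26- arrays and 165 and 182 on the CD26+ arrays. It separated the groups in deposited signal, and after normalization CD26+ replicate 2 was lower by 0.13 on the log2 scale than CD26- replicate 1. CLDN18, a claudin of stomach and lung, read 29.2 and 132 on the CD26- arrays and 114 and 780 on the CD26+ arrays, with CD26+ replicate 1 close to the array labelled CD26- replicate 2. CLDN5, CLDN19 and CLDND2 had signals of 14.4 to 281 on the 3 similar arrays. CLDN5 is a claudin of blood vessels and one of the endothelial markers above.

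CLDN23, a claudin of the intestine, was the clearest of the claudins on the lower side. It read 109 and 160 on the CD26- arrays and 17.2 and 11.9 on the CD26+ arrays. Here the CD26+ arrays were close to each other and both were far below the CD26- arrays, and CD26+ replicate 1 was 6.35-fold and 9.32-fold below them in deposited signal. Both CD26+ signals lay far under their array medians of 79.07 and 270.3, so these ratios rest on dim values. After normalization the 2 gaps were −1.89 and −2.07 on the log2 scale. The fitted change ran from −3.79 with a pseudocount of 1 to −1.61 with 64. CLDN23 had the lowest ratio of the group in the pair that chose it, 0.16. Its fitted log2 fold change was −2.66 (SE 0.90, limma adjusted p = 0.79) and −1.98 without CD26+ replicate 2. CLDN11, known from myelin and testis, read 115 and 80.7 on the CD26- arrays and 50.1 and 70.5 on the CD26+ arrays, a smaller difference of the same sign.

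MARVELD3, a tight junction membrane protein related to occludin, read 930 and 1157 on the CD26- arrays and 247 and 155 on the CD26+ arrays. The CD26- arrays were close to each other, both CD26+ arrays were below them, and CD26+ replicate 1 was 3.76-fold and 4.68-fold lower. The fitted log2 fold change was −2.56 (SE 1.0, n = 2 arrays a group, limma adjusted p = 0.79) and −1.56 without CD26+ replicate 2. MARVELD1, another protein of that domain family, read 1430 and 1363 on the CD26- arrays and 2995 and 890 on the CD26+ arrays, so that its CD26+ arrays enclosed its CD26- arrays.

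Polarity proteins were 3 genes with 3 patterns. PARD6B, the adaptor that joins PARD3 to the atypical protein kinase C, read 4514 and 1368 on the CD26- arrays and 1212 and 35.5 on the CD26+ arrays. Its CD26+ arrays were both lower, yet CD26+ replicate 1 was 3.73-fold below CD26- replicate 1 and only 1.13-fold below the array labelled CD26- replicate 2. PARD3 itself, a scaffold of the tight junction, read 279 and 397 on the CD26- arrays and 775 and 124 on the CD26+ arrays. It was highest on CD26+ replicate 1 and lowest on CD26+ replicate 2. PARD3B, its relative, read 20.8 and 109 on the CD26- arrays and 175 and 997 on the CD26+ arrays with probe set 1553190_s_at, and 18.6 and 384 against 222 and 98.7 with 228411_at. The first put both CD26+ arrays above both CD26- arrays, with a fitted log2 fold change of 2.45 (SE 1.08), which was 1.5 without CD26+ replicate 2. The second did not, with −0.17 (SE 1.42), and −1.64 to 1.30 when an array was left out.

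Desmosomal genes were 6, and 5 of them were lower on CD26+ replicate 1 in the pair that chose them. DSC2 (desmocollin 2), whose promoter is shown above, is the desmocollin of simple epithelia including the colon. It read 4237 and 6862 on the CD26- arrays and 1744 and 508 on the CD26+ arrays. Both CD26+ arrays were below both CD26- arrays and CD26+ replicate 1 was 2.43-fold and 3.93-fold lower. The fitted log2 fold change was −2.80 (SE 1.11, limma adjusted p = 0.79) and −1.62 without CD26+ replicate 2. PKP2 and PKP3 encode plakophilins, which tie desmosomal cadherins to desmoplakin. PKP2 read 75.6 and 106 on the CD26- arrays and 14.7 and 172 on the CD26+ arrays, and PKP3 read 114 and 97.6 and then 52.1 and 140. In both genes CD26+ replicate 1 was the lowest array and CD26+ replicate 2 the highest in deposited signal, and after normalization both CD26+ arrays were the lower ones.

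The remaining desmosomal genes are those of stratified epithelia. PKP1, the plakophilin of skin, read 44.5 and 66.3 on the CD26- arrays and 14.7 and 160 on the CD26+ arrays. DSG3 (desmoglein 3) read 42.8 and 43.0 on the CD26- arrays and 15.7 and 160 on the CD26+ arrays. Both were dim and lowest on CD26+ replicate 1. DSC3, the desmocollin of skin, was the only gene of the family higher on CD26+ replicate 1 in that pair. Its probe set 206032_at read 26.5 and 52.3 on the CD26- arrays and 72.0 and 627 on the CD26+ arrays, while 206033_s_at read 30.0 and 6.57 and then 13.9 and 274. The 2 probe sets thus differed in direction between the replicate 1 arrays.

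Keratins were the largest family, with 14 keratin genes and the pseudogene KRT19P2. On the replicate 1 arrays 11 of these 15 were higher and 4 lower in CD26+ cells. KRT20, the keratin of mature colon epithelial cells, whose promoter is shown above, lies on chromosome 17 (39032113 to 39041483 in the deposited table). It read 10260 and 32152 on the CD26- arrays and 3655 and 36.3 on the CD26+ arrays. All 4 arrays were far apart, with both CD26+ arrays the lower ones, and CD26+ replicate 1 was 2.81-fold and 8.80-fold below the CD26- arrays. The fitted log2 fold change was −5.87 (SE 2.29, limma adjusted p = 0.79) and −2.46 without CD26+ replicate 2. KRT19, a keratin of simple epithelia, read 22314 and 30540 on the CD26- arrays and 10708 and 50.3 on the CD26+ arrays. CD26+ replicate 1 was 2.08-fold and 2.85-fold lower than the CD26- arrays, and the fitted change of −5.69 (SE 2.57) became −1.68 without CD26+ replicate 2. The deposited table aligns this KRT19 probe set first to chromosome 6, whereas RefSeq places the gene on chromosome 17, so signal of a copy elsewhere cannot be told apart. KRT19P2, a processed copy of KRT19 on chromosome 12, read 32.0 and 16.6 on the CD26- arrays and 79.3 and 647 on the CD26+ arrays, opposite to KRT19 on every CD26+ to CD26- pair of arrays.

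KRT10, the keratin of the upper layers of skin, went the other way from KRT20 on the replicate 1 arrays. Its probe set 210633_x_at read 2327 and 3457 on the CD26- arrays and 5267 and 140 on the CD26+ arrays. CD26+ replicate 1 was the highest and CD26+ replicate 2 the lowest of the 4, and the other probe sets of KRT10, 207023_x_at and 213287_s_at, had the same order. Without CD26+ replicate 2 the fitted log2 fold change of KRT10 turned from −2.13 (SE 1.95) to 0.78. KRT23, an acidic keratin known from digestive epithelia, read 19.8 and 2142 on the CD26- arrays and 233 and 605 on the CD26+ arrays. KRT13, a keratin of the mouth and oesophagus, read 765 and 54.8 on the CD26- arrays and 171 and 121 on the CD26+ arrays. KRT17, a keratin of skin appendages, read 185 and 1161 on the CD26- arrays and 392 and 314 on the CD26+ arrays. In all 3 the CD26+ arrays lay between the CD26- arrays in deposited signal, which were 108-fold apart for KRT23, 14.0-fold for KRT13 and 6.26-fold for KRT17.

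KRT7, which simple epithelia outside the intestine usually carry, was read by 3 probe sets with different results. Probe set 209016_s_at, aligned to the plus strand of chromosome 12, read 164 and 278 on the CD26- arrays and 332 and 350 on the CD26+ arrays, and its fitted log2 fold change was 0.00 (SE 0.88). Probe sets 1558393_at and 214031_s_at, aligned to the minus strand, read 67.5 and 104 against 171 and 1418, and 21.6 and 2.03 against 65.8 and 385. Their fitted changes were 2.29 (SE 1.15) and 2.22 (SE 0.95), and 0.92 and 1.82 without CD26+ replicate 2. Whether the latter pair reads KRT7 or a transcript of the opposite strand was not tested. Keratins of hair, skin and cornea (KRT2, KRT3, KRT6B, KRT32, KRT33B, KRT81 and KRT83) had signals of 12.4 to 287 on the 3 similar arrays. Of these, KRT3 and KRT83 had both CD26+ arrays above both CD26- arrays after normalization, with 32.3 and 73.3 against 113 and 1233 for KRT3. KRT6B and KRT17 were read by _x_at probe sets, which can bind the transcripts of related keratins.

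**Figure D3:**
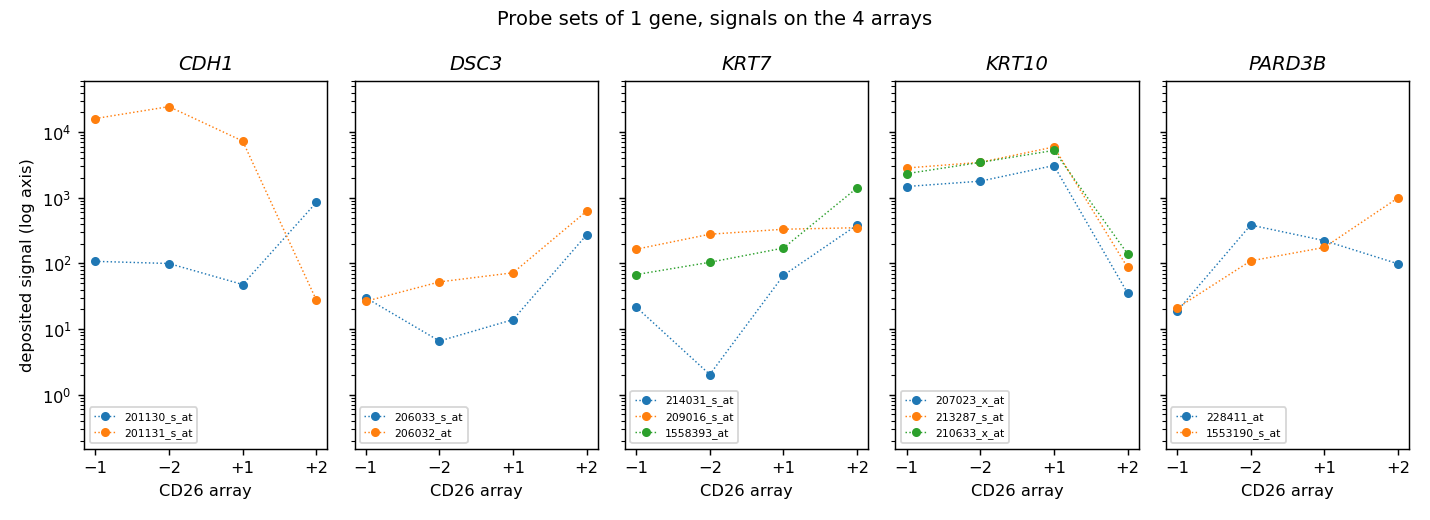
Deposited signals (log axis) of 5 genes read by more than 1 probe set, on CD26- replicates 1 and 2 (−1, −2) and CD26+ replicates 1 and 2 (+1, +2), with dotted lines only joining the values of a probe set. The 3 KRT10 probe sets run together, whereas those of CDH1 cross on CD26+ replicate 2, where 201131_s_at reads 27.7 and 201130_s_at reads 848.

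CEACAM3, an adhesion molecule of granulocytes and the only CEACAM gene of the group, read 25.3 and 99.5 on the CD26- arrays and 115 and 634 on the CD26+ arrays with an _x_at probe set. The CEACAM genes are closely related, so signal from CEACAM5 or CEACAM6, which colon cells are known to carry, cannot be told apart here.

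Connexins were 5 genes, and 4 of them were lower on CD26+ replicate 1 in the pair that chose them, but in none of these 4, taken by the probe set that stands for the gene, did both CD26+ arrays lie under both CD26- arrays. GJB1 (connexin 32), the connexin of liver and gut epithelium, whose promoter is shown above, was the exception. It read 88.3 and 320 on the CD26- arrays and 745 and 3037 on the CD26+ arrays. Both CD26+ arrays were above both CD26- arrays, with CD26+ replicate 1 at 8.43 and 2.32 times their signals. The fitted log2 fold change was 2.99 (SE 1.17, n = 2 arrays a group, limma adjusted p = 0.79) and 1.72 without CD26+ replicate 2. GJB2 (connexin 26) read 8444 and 1388 on the CD26- arrays and 3091 and 59.7 on the CD26+ arrays. CD26+ replicate 1 was 2.73-fold below CD26- replicate 1 and 2.23 times the array labelled CD26- replicate 2, so that the sign depended on the CD26- array, and the fitted change of −3.28 (SE 2.18) was −0.18 without CD26+ replicate 2. GJB6 and GJA10 were dim, at 8.56 to 115 on the 3 similar arrays.

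The arrays labelled CD26- can be set against each other as a measure of spread that involves no CD26+ array. CD26- replicate 1 was part of the pair that chose the genes, so this spread is not free of the choice. Of the 61 genes, 24 were at least 2-fold apart between them, 15 higher and 9 lower on the array labelled CD26- replicate 2 after normalization. That is 39.3%, beside 32.3% of the listed genes and 24.2% of all probe sets. A gap of 8-fold or more on the same scale was seen in 4 genes (CDH3, CDH17, KRT23 and KRT13), or 6.56%, beside 1.54% of the listed genes and 0.582% of all probe sets. In deposited signal GJB6, at 115 and 8.56, was also more than 8-fold apart. DPP4, the gene of the sort, was also higher on that array, and its part in these values was not tested. CDH1, KRT19, DSC2, MARVELD3 and CLDN23 differed less between the CD26- arrays than CD26+ replicate 1 differed from either of them, whereas KRT20 did not, its CD26- arrays being 3.13-fold apart. The gap of CD26+ replicate 1 to CD26- replicate 1 was at least 2-fold by the choice of genes, so this is a description and no test.

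**Figure D4:**
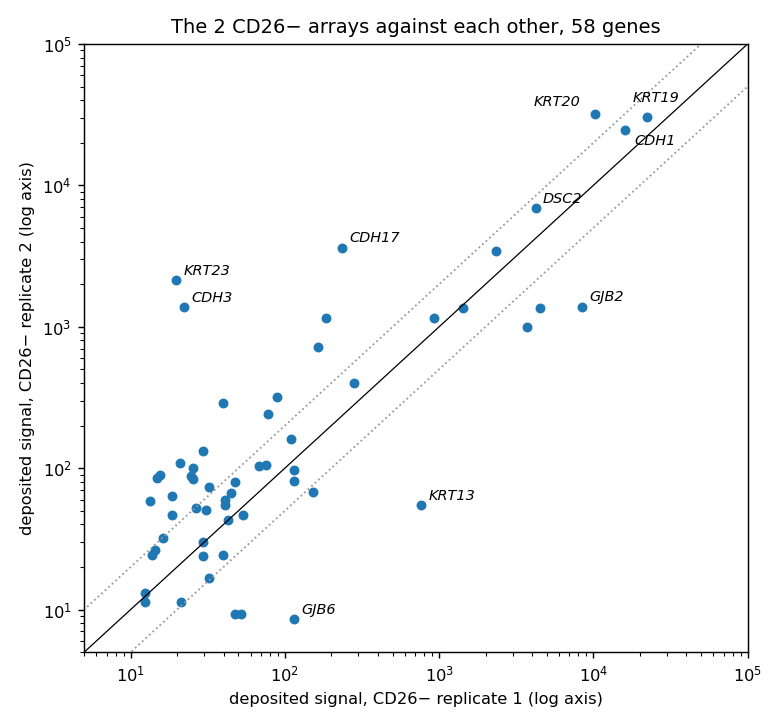
Deposited signals (log axes) of 58 genes, CD26- replicate 1 on the horizontal and the array labelled CD26- replicate 2 on the vertical axis, with the line of equality and dotted lines at 2-fold. CDH3, KRT23 and CDH17 stand far above the line and KRT13 and GJB6 far below it, while CDH1, KRT19 and DSC2 lie within the dotted lines.

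The replicate 2 arrays took no part in the choice of genes, and with 1 array a group their difference has no replicate check and no test. CD26+ replicate 2 lay 2-fold or more below the array labelled CD26- replicate 2 in 23 of the 61 genes and 2-fold or more above it in 21. These shares, 37.7% and 34.4%, lay near those of the 6603 listed genes, 39.0% and 34.3%, and of all probe sets, 32.1% and 36.3%. The balance depended on the scaling, since without normalization the counts were 14 lower and 32 higher. Among the 14 genes of the bright class, 10 were lower and 2 higher (GJB1 and CTNNBIP1), beside 56.0% and 23.1% of the listed genes of that class. Of the other 47 genes, 13 were lower and 19 higher, beside 31.3% and 39.4%. The bright class was set by the mean over all 4 arrays, the replicate 2 arrays among them, so class and direction are not independent. KRT20, CDH1 and KRT19 had the largest differences, −10.22, −10.01 and −9.88 on the log2 scale, so that signals of 24462 to 32152 on the CD26- array met signals of 27.7 to 50.3, below the median of CD26+ replicate 2. Without CD26+ replicate 1, where replicate 2 alone stands for CD26+ cells, the fitted changes of these 3 were −9.27, −9.63 and −9.71. DSC2 (−4.43), MARVELD3 (−3.68) and CLDN23 (−3.43) had the sign they had between the replicate 1 arrays, as had GJB1 (3.68), CLDND2 (2.87) and CLDN9 (2.60). KRT10 (−5.35), PARD3 (−2.62) and CDH3 (−4.93) had the opposite sign. As given above, CD26+ replicate 2 also differed from every other array in its correlation, its median and its marker sums, and the part of that in these values was not tested.

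**Figure D5:**
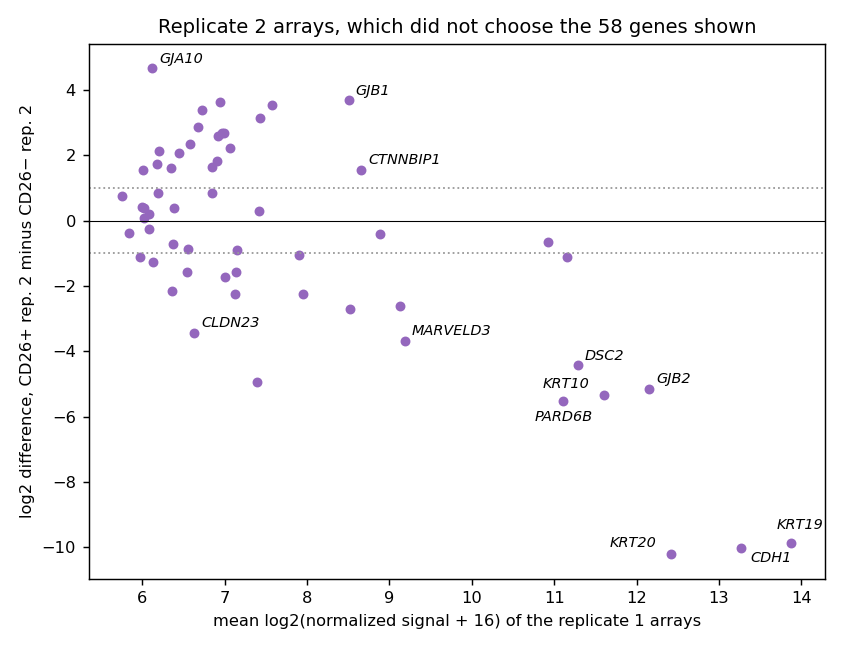
Log2 difference of CD26+ replicate 2 from the array labelled CD26- replicate 2 (1 array each) against the mean log2(normalized signal + 16) of the replicate 1 arrays, for 58 genes, with dotted lines at 2-fold. KRT20, CDH1 and KRT19, on the right, lie near −10, and of the 14 genes of the bright class GJB1 and CTNNBIP1 are above the upper dotted line.

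Counting both pairs, both CD26+ arrays were below both CD26- arrays after normalization in 13 of the 61 genes and above both in 16. These shares of 21.3% and 26.2% lay close to 19.5% and 24.3% of the listed genes, beside 16.2% and 20.4% of all probe sets. Desmosomal genes, 6 of the 61, made up 4 of the 13, but PKP1, PKP2 and PKP3 were highest on CD26+ replicate 2 before normalization. Claudins, 9 of the 61 with CLDND2 counted, made up 5 of the 16, CLDND2 among them, and keratins, 15 of the 61, made up 4. These keratins included the pseudogene KRT19P2, and KRT7 by a probe set aligned to the minus strand. By the means of the groups, 20 genes were at least 2-fold higher and 16 at least 2-fold lower, and 27 and 10 without normalization. The shares of 32.8% and 26.2% lay near those of the listed genes, 28.4% and 27.5%, and of all probe sets, 24.5% and 23.2%. The median fitted log2 fold change was 0.06 over the 61 genes, 0.04 over the listed genes and 0.11 over all probe sets. Over the 14 genes of the bright class it was −2.35, and over the listed genes of that class −0.68. That class was set with the signals of the same arrays.

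Other genes of the junctions and of epithelial identity were taken from a list of 63, of which 25 were named in the deposited table and 0 were called by limma. CD26+ replicate 1 lay 2-fold or more below both CD26- arrays in 4 of them, ELF3 and ZEB1 among them, and above both in 1 (RAB25), where the shares were 10.1% and 12.9% of the listed genes and 5.83% and 4.53% of all probe sets. The median fitted log2 fold change of the 25 was −0.75. ELF3, an epithelial transcription factor, read 3551 and 3396 on the CD26- arrays and 1419 and 872 on the CD26+ arrays. It was lower on both CD26+ arrays. RAB25, a GTPase of epithelial membrane recycling, read 2511 and 3120 on the CD26- arrays and 7422 and 125 on the CD26+ arrays, the same order as KRT10. The known repressors of CDH1 named there, SNAI1, ZEB1 and ZEB2, read at most 82.8 on the 3 similar arrays. SNAI1 read 17.3 and 54.9 on the CD26- arrays and 59.7 and 754 on the CD26+ arrays, ZEB1 read 78.6 and 82.8 against 25.2 and 771, and ZEB2 read 31.4 and 56.0 against 75.0 and 155. SNAI1 and ZEB2 were higher and ZEB1 was lower on CD26+ replicate 1 than on both CD26- arrays.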

How the data were processed

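Total RNA of sorted HT29 cells was hybridised to 4 arrays, 2 CD26+ and 2 CD26-. The deposited intensity of each probe set is a linear signal, and the paper names Genespring GX and Genomatix Genome Analyzer for the analysis of the arrays. The summarization, the scaling and the genome build were not given in the sources used here. Gene symbols, Entrez identifiers and alignments came from other columns of a comparison table the authors deposited, and its fold changes and directions were left unused. Which arrays that table compared was read from the signals, since its header numbers the CD26+ array otherwise. The number of arrays limits the precision.

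Signals of 54675 probe sets were quantile normalized and log2(signal + 16) was taken. After removal of 62 control probe sets, 54613 were tested by lmFit and eBayes of limma (version 3.58.1, R 4.3.3) for CD26+ minus CD26-. No replicate term was used, tests were two-sided, and a p adjusted by Benjamini-Hochberg under 0.05 was called. The procedure was tested on simulated arrays of equal spread, set far below the median residual SD of 0.976 in these data. That test does not show which changes could be found here. P-values reflect the spread of these arrays alone. Each gene was represented by the probe set with the highest mean over the 4 arrays among its probe sets in the comparison table. Its probe sets outside that table, if any, were not used and may read otherwise. Genes were named with values if they belonged to a fixed list of colon epithelial genes, were among the 3 of their family with the widest separation of the groups, or had probe sets that differed in direction, and other genes were added after their values were seen. The genes and lists were chosen with earlier results of these data known. Promoters and chromosomes came from RefSeq tables of GRCh38.p14. Alternatives were other scalings, pseudocounts of 1 and 64, filters on dim and on _s_at and _x_at probe sets, averaging over probe sets of a gene, another prior, the methods' t-test, a replicate block, and leaving out each array. Levels of Y-linked genes and of some other items are not reported here.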

Additional observations from a re-analysis of the deposited data

How the results depend on the processing

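Across all 54613 probe sets, the count of 0 calls became 1 with the replicate number as a block, and ranged from 0 to 23137 when an array was left out, the latter without CD26+ replicate 1, where CD26+ replicate 2 alone stands for its group and is assumed to vary like the other group. Other settings gave 0. The replicate differences of the groups correlated at 0.0375. One of these differences includes CD26+ replicate 2, which stood apart from every array, so this value cannot show whether same-numbered arrays were paired. With values as deposited, 10 genes in place of 16 were at least 2-fold lower in group means, and CD26+ replicate 2 was lower than CD26- replicate 2 in 14 in place of 23 and higher in 32 in place of 21. Without _x_at and _s_at probe sets, which left 41 genes, 10 were lower in group means and CD26+ replicate 1 was below both CD26- arrays in 5 in place of 8. Only genes above the median signal, which left 28, gave 10 higher in group means in place of 20, 15 lower and 10 higher between the replicate 2 arrays, and CD26+ replicate 1 below both CD26- arrays in 5 and above both in 2. The latter count, 5 as reported, was 8 with arrays centred on their medians, 9 with a pseudocount of 1, 3 with a pseudocount of 64 and 9 with 3 arrays normalized without CD26+ replicate 2, a setting chosen after seeing the data. The causes were not tested, beyond the smaller number of genes in the filtered settings. Leaving out an array gave 11 to 21 genes lower and 14 to 22 higher in group means. Most genes of the group were dim, and their ratios depend on the pseudocount.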
